A study of Mus musculus with 34 samples.

Results

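Liver transcripts of mice that make the Z variant of alpha-1 antitrypsin (PiZ) and are labelled as lacking p50 were set against wild-type (WT) liver, to describe what still differs from normal liver in PiZ mice without p50. The comparison holds 10 of the 34 libraries of the series: 5 labelled PiZ p50-KO, from mice injected with PBS into the abdomen, and WT PBS libraries 1, 3, 4, 5 and 6. WT PBS library 2 was set aside for its different make-up. The 5 PiZ libraries with p50 intact, also given PBS, serve as a second point of comparison. All were polyA RNA from livers of male mice of 3 months. Genotypes are given as PiZ p50-KO, PiZ and wildtype. The labels name neither the deleted part of the p50 gene, the promoter of the human transgene, nor the strain or litter of the mice, and they place all libraries of this table in the same batch. Nothing in the labels says that libraries are separate mice, so p-values measure the spread between these libraries. The human transgene itself was not analysed here.

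Alpha-1 antitrypsin is a protease inhibitor that hepatocytes secrete into the blood. The Z variant polymerizes and is retained in the endoplasmic reticulum (ER), the compartment in which secreted proteins fold, and in patients it leads to liver fibrosis and loss of the inhibitor from the lung. p50 is the short, DNA-binding product of Nfkb1 and pairs with p65 (Rela) to form the most abundant NF-kB dimer, an activator of inflammatory and survival genes. As a pair of p50 alone it lacks an activation domain and can hold target genes in check.

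Read depth, in M reads, was 39.0 to 52.3 in the PiZ p50-KO libraries, 35.5 to 50.4 in the PiZ libraries and 41.6 to 54.0 in the 5 WT libraries, against 10.2 in WT PBS 2. Protein-coding genes took 72.2% of the reads of WT PBS 2; in all other libraries of the table they took 97.3% to 97.8%. Mitochondrial transcripts took 19.4% of reads in PiZ p50-KO library 3, against 7.55% to 8.67% in the other libraries of that label. The share was 5.05% to 19.9% in PiZ and 9.14% to 20.3% in WT. Hepatocyte markers were in place everywhere: Alb (albumin) lay between 15.66 and 16.49 log2 CPM in PiZ p50-KO, 15.47 and 16.09 in PiZ and 15.79 and 16.36 in WT. Exocrine pancreas markers were a measured exception. The summed level of 4 of them was 363 CPM in PiZ p50-KO library 4 and 0.94 to 31.4 CPM in the other libraries of that label, against 1.58 to 20.9 CPM in PiZ and 0.183 to 0.697 CPM in WT. Values below are log2 CPM, that is, reads scaled to library size on a log2 scale. A ± behind a mean gives the SD over 5 libraries, and behind a log2 fold change the standard error. Adjusted p-values are from limma.

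The 5 libraries labelled PiZ p50-KO did not form a single group. Among 478 genes at which every PiZ library lay on the same side of every WT library, with means at least 2 log2 units apart, library 1 was nearer to the PiZ mean at 26 genes (5.44%) and library 2 at 39 genes (8.16%). Library 3 was nearer to PiZ at 186 genes (38.9%), library 4 at 393 (82.2%) and library 5 at 376 (78.7%). All 5 were nearer to PiZ at 3 of these genes, Saa1, Chrm3 and Neu3, and all 5 were nearer to WT at 50 (10.5%). At 139 genes (29.1%), libraries 3 to 5 were nearer to PiZ while libraries 1 and 2 were nearer to WT. Library 3, the one with the high mitochondrial share, sat between. Fold changes and counts are therefore given over all 5 libraries and then for libraries 3, 4 and 5 alone. Libraries 1 and 2 were set apart because of their closeness to WT, so a greater distance of the others from WT is partly built into that choice, and the values for libraries 3 to 5 are a description.

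**Figure D1:**
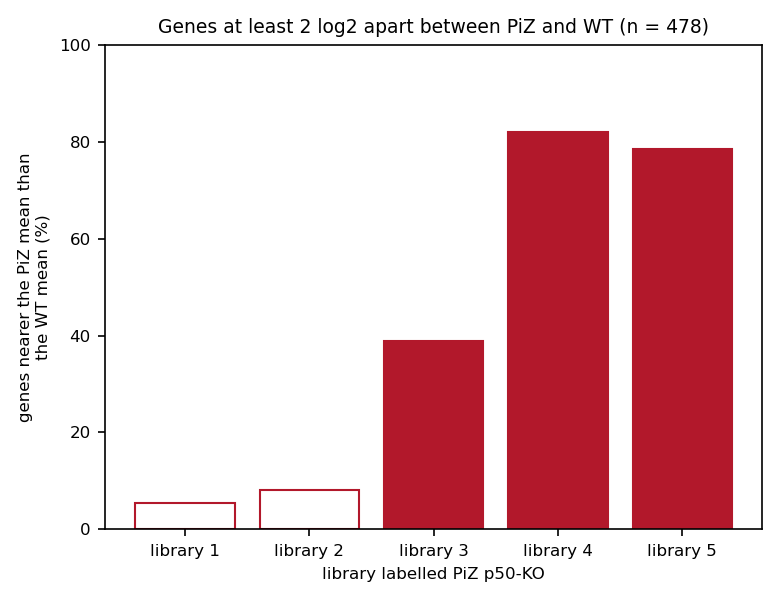
Share of 478 genes at which each library labelled PiZ p50-KO lay nearer the PiZ mean than the WT mean, in percent; the genes are those whose PiZ and WT libraries do not overlap and whose means differ by at least 2 log2 units. Open bars are libraries 1 and 2 (5.44% and 8.16%) and filled bars libraries 3 to 5, of which library 3 (38.9%) lies well below libraries 4 and 5.

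Nfkb1 (chr3:135584655-135691547, minus strand) was read first, as the targeted gene. It was at 4.51, 4.86, 3.31, 3.74 and 3.37 log2 CPM in PiZ p50-KO libraries 1 to 5, at 5.58, 5.45, 5.00, 4.62 and 5.12 in PiZ, and at 4.34, 4.17, 3.92, 4.32 and 4.14 in WT. The values of libraries 3 to 5 lay below every WT library, and those of libraries 1 and 2 above. Over all 5, the difference from WT was -0.22 (exact two-sided permutation test, p = 0.5). For libraries 3 to 5 alone the difference from WT was -0.70 (p = 0.0179, the smallest an exact test of 3 against 5 can give). Libraries 1 and 2 were set apart for their closeness to WT in these same data, so this p is a description. Against PiZ the difference was -1.20 over all 5 (exact two-sided permutation test, p = 0.0159) and -1.68 in libraries 3 to 5 (exact, p = 0.0179). Transcripts of Nfkb1 were thus read in every library labelled as a knockout, and whether the reads cover a deleted part was not tested. Of 39 tested genes within 5 Mb of Nfkb1, 0 passed limma's threshold against WT, 11 had an unadjusted p under 0.05, and voom called 0. Over all 12146 genes, 2784 had an unadjusted p under 0.05. Of the neighbours, 5 passed in libraries 3 to 5 alone, where 1340 of all 11842 genes did.

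The other NF-kB subunits stayed short of the threshold against WT in both sets of libraries. Relb, the partner of p52, was at 1.43, 1.55, 0.93, 3.00 and 2.75 log2 CPM in PiZ p50-KO and at 0.37 to 1.10 in WT (log2 fold change 1.21, adjusted p = 0.0965, and 1.51, adjusted p = 0.0506, in libraries 3 to 5). Nfkb2, the gene of p52, differed from WT by 0.53, Rel by 0.50 and Rela by 0.12, and in libraries 3 to 5 by 0.56, 0.66 and 0.19 in that order. All 4 were lower than in PiZ on average. That difference passed the threshold for Relb (-1.98, adjusted p = 0.0312), Nfkb2 (-1.52, adjusted p = 0.0125) and Rela (-0.69, adjusted p = 0.0301), and not for Rel (-0.62, adjusted p = 0.0754). Of all 12896 genes tested against PiZ, 15.0% were lower. With libraries 3 to 5 alone none of the 4 passed limma: Relb was at -1.69 (adjusted p = 0.167), Nfkb2 at -1.50 (adjusted p = 0.0543), Rela at -0.62 (adjusted p = 0.107) and Rel at -0.45 (adjusted p = 0.3).

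**Figure D2:**
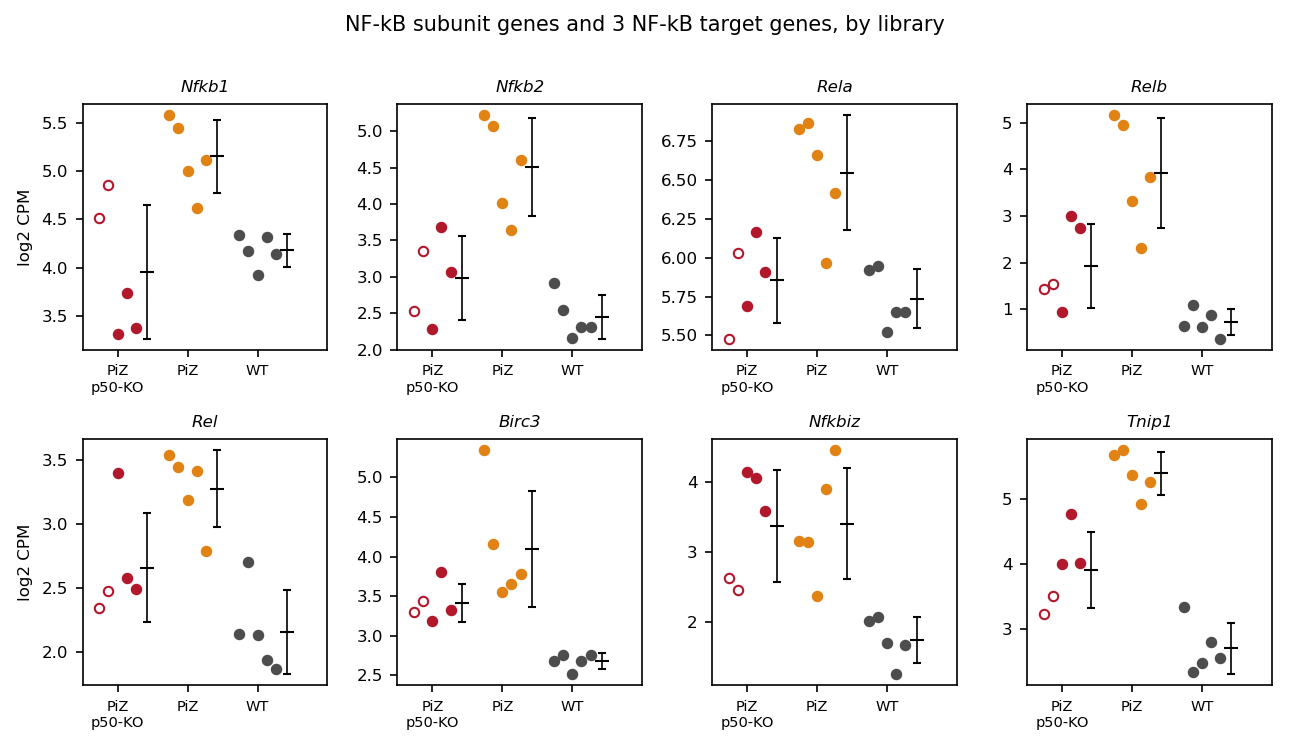
Level in log2 CPM of the 5 NF-kB subunit genes and of 3 NF-kB target genes in each library (points; open points are PiZ p50-KO libraries 1 and 2), with mean and SD (bars) for PiZ p50-KO, PiZ and WT. Nfkb1 in PiZ p50-KO libraries 3 to 5 (3.31 to 3.74) lies below WT (3.92 to 4.34), and Birc3 lies above every WT library in all 5.

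Across 12146 genes tested, 214 were higher in PiZ p50-KO than in WT (1.76%) and 11 were lower (0.0906%) at an adjusted p under 0.05. The lowest adjusted p was 0.0142, so the calls lie near the threshold: with WT PBS 2 kept there were 0 (383 higher and 101 lower at an unadjusted p under 0.05). Without WT PBS library 5 or 6 there were also 0 by limma (1928 higher and 249 lower, and 1814 higher and 246 lower, at an unadjusted p under 0.05). Leaving out another WT library gave 67 higher and 3 lower (library 1), 83 and 3 (library 3) or 14 and 1 (library 4). Without PiZ p50-KO library 4 there was 1 call, without library 5 there were 4, without library 1 there were 517 higher and 79 lower, without library 2 there were 221 and 28, and without library 3 there were 395 and 25. The typical called rise was 1.07 log2 units (median), where the mean PiZ library differed from WT by 1.59 at the same genes. All 5 PiZ p50-KO libraries lay above every WT library at 690 genes (5.68%) and below every one at 73 (0.601%). A gene under 1 CPM in every WT library was tested only if all 5 PiZ p50-KO libraries were above 1 CPM. For such genes, Top2a and Cx3cr1 among them, this order was fixed in advance. The fit of libraries 3 to 5 alone gave 1074 higher genes (9.07% of 11842) and 266 lower (2.25%). These 2 shares are the background for every list count of libraries 3 to 5 against WT below. The median gene was 0.17 log2 units above WT in both fits. With every library shifted to the same median, which moved this median to -0.05, 17 genes were higher and 10 lower over all 5 libraries. That shift applied to libraries 3 to 5 alone gave 600 higher and 532 lower. Over all 5 libraries the share of higher calls was 63.0% in place of 95.1%. Changes below are relative to a median gene at 0.17.

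The greatest rises among genes whose groups did not overlap were in secreted acute-phase proteins, an ER gene and innate immune genes. Saa2 (serum amyloid A2, chr7:46751790-46754313), carried on high-density lipoprotein during inflammation, was at 8.88, 4.46, 6.44, 6.82 and 7.11 log2 CPM in PiZ p50-KO libraries 1 to 5. It was at 6.95, 6.13, 5.89, 6.09 and 5.95 in PiZ and at 2.52, 2.91, 3.52, 3.23 and 3.13 in WT. Library 1, otherwise near WT, held the highest value of the 15, and the PiZ p50-KO range enclosed the PiZ range. The log2 fold change against WT was 3.68 ± 0.60 (adjusted p = 0.0258) and 3.73 in libraries 3 to 5. Saa1 (chr7:46740497-46742980) followed the same order, with 9.46, 5.93, 7.05, 7.53 and 8.06 in PiZ p50-KO and 4.65 to 5.21 in WT (2.70 ± 0.49, adjusted p = 0.0301, and 2.64 in libraries 3 to 5). The 2 genes are close copies, and reads may be split between them.

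Lcn2 (lipocalin 2, chr2:32384633-32388252), an iron-siderophore-binding protein of hepatocytes and neutrophils, was at 6.90, 3.57, 3.94, 5.22 and 6.15 log2 CPM in PiZ p50-KO, at 7.99 to 9.17 in PiZ and at 1.26 to 2.77 in WT. The 3 groups did not overlap. Its rise over WT was 3.38 ± 0.57 (adjusted p = 0.0258, and 3.33 in libraries 3 to 5), and its difference from PiZ was -3.53 (adjusted p = 0.00236, and -3.58 in libraries 3 to 5). Hc (complement C5, chr2:34983331-35061438) stood at 6.69 and 7.02 in libraries 1 and 2 and at 9.40, 8.83 and 8.81 in libraries 3 to 5, against 8.54 to 9.03 in PiZ and 5.78 to 6.06 in WT. All 5 were thus above WT, with libraries 3 to 5 at the PiZ level (2.26 ± 0.45, adjusted p = 0.0378; 3.12 in libraries 3 to 5). Oasl1, an interferon-induced regulator of translation, averaged 3.86 ± 1.06 in PiZ p50-KO, 3.92 in PiZ and 1.73 ± 0.21 in WT (log2 fold change 2.13, and 2.84 in libraries 3 to 5). Lyz2 (lysozyme of macrophages) averaged 6.72 ± 1.10, against 8.31 in PiZ and 4.83 ± 0.16 in WT (1.89, and 2.67 in libraries 3 to 5). Tmf1, a Golgi-associated coiled-coil protein, averaged 3.89 ± 0.53 in PiZ p50-KO, 4.46 in PiZ and 2.17 ± 0.28 in WT (1.73 ± 0.24, adjusted p = 0.0142, and 1.72 in libraries 3 to 5). Its values in libraries 1 and 2, 3.83 and 3.96, lay within the 3.16 to 4.66 of libraries 3 to 5.

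**Figure D3:**
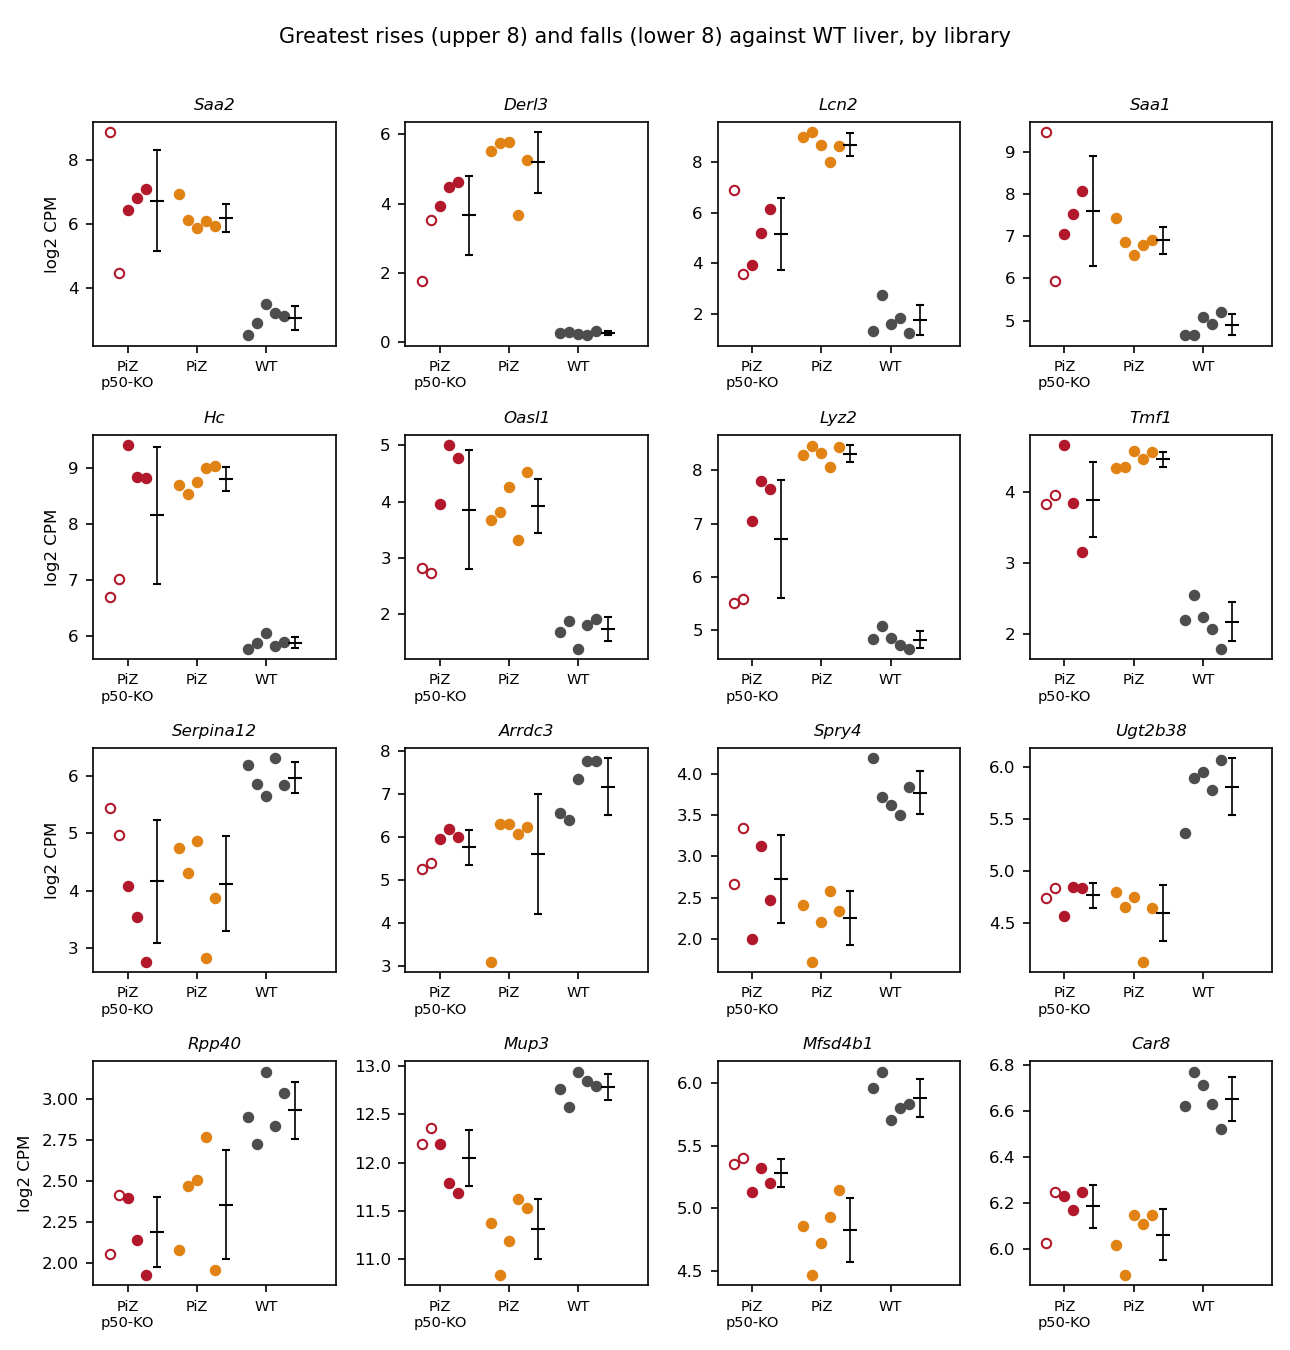
Level in log2 CPM by library (points; open points are PiZ p50-KO libraries 1 and 2), with mean and SD (bars), of the 8 genes with the greatest rise (upper panels) and the 8 with the greatest fall (lower panels) in PiZ p50-KO against WT. In each panel every PiZ p50-KO library lies outside the WT range; vertical axes differ and do not start at 0.

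Falls were fewer than rises, and the median called fall was -1.05. Serpina12 (vaspin, a secreted serpin) was at 5.44, 4.97, 4.09, 3.55 and 2.77 log2 CPM in PiZ p50-KO, at 2.83 to 4.87 in PiZ and at 5.65 to 6.30 in WT (-1.80 ± 0.41, adjusted p = 0.0488, and -2.49 in libraries 3 to 5). Arrdc3, an arrestin-domain adaptor for receptor sorting, was at 5.25, 5.40, 5.94, 6.17 and 6.00 in PiZ p50-KO and at 6.38 to 7.77 in WT (-1.41 ± 0.29, adjusted p = 0.0396). The fall did not pass in libraries 3 to 5 (-1.12, adjusted p = 0.053). PiZ library 1 stood at 3.10 and the other 4 PiZ libraries at 6.07 to 6.29, so that without PiZ library 1 all but 1 of the PiZ p50-KO values lie below PiZ. Spry4, a feedback inhibitor of receptor tyrosine kinases, averaged 2.72 ± 0.54, against 2.25 in PiZ and 3.77 ± 0.27 in WT (-1.05, and -1.24 in libraries 3 to 5). Ugt2b38, a glucuronosyltransferase with male-biased expression in mouse liver, was at 4.74, 4.84, 4.57, 4.85 and 4.84 in PiZ p50-KO, at 4.13 to 4.80 in PiZ and at 5.37 to 6.07 in WT. It fell by 1.05 (adjusted p = 0.0142), and by 1.06 in libraries 3 to 5, with libraries 1 and 2 as low as the others. Mup3, a major urinary protein, fell by 0.73 (adjusted p = 0.0405) and by 0.89 in libraries 3 to 5, with 11.69 to 12.36 in PiZ p50-KO, 10.84 to 11.62 in PiZ and 12.57 to 12.94 in WT. Mup genes are close copies, so its reads are uncertain. Rpp40 (a ribonuclease P subunit) fell by 0.75, Mfsd4b1 (a sugar transporter family member) by 0.60 and Car8 (a carbonic anhydrase-related protein) by 0.46. Rpp40 fell by 0.78, Mfsd4b1 by 0.66 and Car8 by 0.43 in libraries 3 to 5.

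On average, ER chaperones were above WT in libraries 1 and 2 too. The mean over the list was 0.34, 0.59, 0.54, 0.73 and 0.76 log2 units above WT in PiZ p50-KO libraries 1 to 5. It was 0.81 to 1.26 in PiZ and -0.14 to 0.20 in single WT libraries. After the shift to the same median, libraries 1 and 2 were at 0.21 and 0.26, with single WT libraries at up to 0.18. Dnajb9 went the other way, at 5.48 and 4.92 log2 CPM in libraries 1 and 2, below the 6.21 to 6.91 of WT (-0.38 over all 5, adjusted p = 0.626). ER chaperones fold and oxidize secreted proteins, and in stressed cells XBP1, ATF6 and ATF4 raise their genes. Of 24 measured, 5 rose over all 5 libraries and 0 fell (background 1.76% and 0.0906%), with a median log2 fold change of 0.61, against 0.17 for all genes. After the shift to the same median 0 of the 24 passed limma over all 5, and their median was 0.39. In libraries 3 to 5 alone 12 rose, where 9.07% of all genes did, with a median of 0.66. After the shift to the same median 7 rose there. The 5 that rose over all 5 libraries were Hsp90b1, Dnajc3, Pdia6, Pdia4 and Sdf2l1. Hsp90b1 (GRP94, the ER member of the HSP90 family) was at 8.97, 9.47, 9.09, 8.83 and 8.76 log2 CPM in PiZ p50-KO, at 9.09 to 9.37 in PiZ and at 7.62 to 8.23 in WT (1.08, adjusted p = 0.0202, and 0.95 in libraries 3 to 5). Libraries 1 and 2 were as high here as libraries 3 to 5. Sdf2l1, a partner of BiP in the ER lumen, was at 5.98, 6.52, 5.14, 6.43 and 6.61 in PiZ p50-KO, at 5.48 to 7.03 in PiZ and at 4.24 to 5.15 in WT, so that library 3 overlapped WT (1.52, adjusted p = 0.0301, and 1.45 in libraries 3 to 5).

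Hspa5 (BiP, the master ER chaperone) was at 10.28, 10.62, 9.83, 10.15 and 10.05 log2 CPM in PiZ p50-KO, at 10.29 to 10.81 in PiZ and at 9.07 to 10.08 in WT, short of the threshold (0.81, adjusted p = 0.0632, and 0.63, adjusted p = 0.0977, in libraries 3 to 5). A single WT library, number 1, held 10.08, with the other 4 at 9.07 to 9.33. Derl3, a channel component for degrading misfolded ER proteins, belongs to degradation and translocation, where 1 of 32 measured genes rose over all 5 and 6 in libraries 3 to 5 (median 0.28 and 0.32). The shift to the same median left 1 in each, with medians of 0.06 and 0.12. Herpud1, of the same list, was at 7.06 and 6.97 log2 CPM in libraries 1 and 2, below the 8.71 to 9.37 of WT. In libraries 3 to 5 it was at 8.73, 8.79 and 9.13 (-0.81 over all 5, adjusted p = 0.244). Derl3 was at 1.78, 3.53, 3.93, 4.48 and 4.62 in PiZ p50-KO, at 3.67 to 5.77 in PiZ and at 0.20 to 0.32 in WT, so that all 5 PiZ p50-KO libraries lay above every WT library, library 1 closer to the WT mean of 0.27 than to the PiZ mean of 5.19 (3.40 ± 0.43, adjusted p = 0.0142, and 4.07 in libraries 3 to 5). ER to Golgi carriers gave 1 of 28 (Tmed9, 0.67, adjusted p = 0.0378, and 0.65 in libraries 3 to 5) and 8 in libraries 3 to 5, of which 1 was left after the shift to the same median.

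The promoters of these genes are shown because the ER stress element, the site that ATF6 and XBP1 recognize, can be read in them. The motif searched was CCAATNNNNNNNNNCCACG on either strand, in windows of 250 bases before and 50 after the start site (RefSeq, GRCm38.p6). It was found in 16 of 9018 tested genes with a window (0.177%), in 7 of 22 ER chaperones (31.8%: Calr, Canx, Creld2, Dnajc3, Hsp90b1, Hspa5 and Pdia6) and in 2 of 23 genes of degradation and translocation (Derl3 and Syvn1). The windows of Sdf2l1 and Pdia4, which also rose, do not hold these letters. Printed is the stretch of each window around its matches, 5′ to 3′ on the gene's strand; capitals mark the fixed letters.
Derl3 (chr10:75893202-75893300, plus strand): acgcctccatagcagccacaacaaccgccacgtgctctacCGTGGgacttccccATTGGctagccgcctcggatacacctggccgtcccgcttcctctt
Hsp90b1 (chr10:86705493-86705694, minus strand): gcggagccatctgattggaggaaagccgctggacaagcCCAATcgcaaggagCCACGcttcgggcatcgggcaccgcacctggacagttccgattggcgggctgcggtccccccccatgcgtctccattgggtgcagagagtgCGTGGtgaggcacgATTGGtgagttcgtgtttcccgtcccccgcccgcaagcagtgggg
Dnajc3 (chr14:118937787-118937885, plus strand): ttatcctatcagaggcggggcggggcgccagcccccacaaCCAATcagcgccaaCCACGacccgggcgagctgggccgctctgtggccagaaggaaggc
Pdia6 (chr12:17266451-17266549, plus strand): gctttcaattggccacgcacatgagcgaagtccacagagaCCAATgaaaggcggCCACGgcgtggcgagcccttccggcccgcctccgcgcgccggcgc
Hsp90b1 holds 2 matches, 1 on each strand. In Derl3 the match lies on the opposite strand, and it ends 138 bases before the annotated start.

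Another branch of the ER response works through PERK and ATF4. Of its 22 measured genes, 0 passed limma's threshold over all 5 libraries (4 had an unadjusted p under 0.05, and voom called 0; median 0.21, and -0.01 after the shift to the same median). Asns (asparagine synthetase) was at -1.09 and -1.28 log2 CPM in libraries 1 and 2, within the WT range (-1.79 to 1.42), and at 3.45, 4.00 and 3.40 in libraries 3 to 5, against 4.41 to 5.21 in PiZ (1.79, adjusted p = 0.342, and 3.71 in libraries 3 to 5). Ddit3 (CHOP, a death-linked factor) differed from WT by 0.33 (adjusted p = 0.468) and 0.50 in libraries 3 to 5. Its difference from PiZ was -1.25 (adjusted p = 0.00903) and did not pass in libraries 3 to 5 (-1.09, adjusted p = 0.057). In libraries 3 to 5 alone, limma had Asns and Mthfd2 (a mitochondrial folate enzyme) higher and Cth (cystathionine gamma-lyase) lower. That is 2 and 1 of 22, where 9.07% of all genes were higher and 2.25% lower. Of 11 stress sensors and their factors 0 passed over all 5 (2 at an unadjusted p under 0.05, voom 0). In libraries 3 to 5, Atf6 and Creb3l1 did.

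Interferon-stimulated genes, which act in antiviral defence, had more calls in libraries 3 to 5 than over all 5. So did all genes, of which 9.07% were higher in libraries 3 to 5 and 1.76% over all 5. Of 26 measured, 7 rose and 0 fell over all 5 libraries, with a median log2 fold change of 1.21 (0.99 after the shift to the same median). In libraries 3 to 5 alone 22 of 25 rose, with a median of 1.64, and 21 after the shift. Those that rose over all 5 libraries included Oasl1, Mx2, Dhx58, Parp14, Irf9 and Stat2. Irf9 was at 4.25, 4.46, 5.19, 5.39 and 5.50 log2 CPM in PiZ p50-KO, at 4.69 to 5.14 in PiZ and at 3.65 to 4.17 in WT (1.09, adjusted p = 0.0454, and 1.49 in libraries 3 to 5). Stat2 was at 4.58, 5.25, 4.37, 4.82 and 4.78, against 4.22 to 4.82 in PiZ and 3.78 to 4.22 in WT (0.79, adjusted p = 0.0408, and 0.69 in libraries 3 to 5). All 5 libraries lay above every WT library for both genes. After the shift to the same median 0 of the 26 passed limma over all 5. By contrast, Irf7 (2.99 and 3.69 in libraries 1 and 2, 5.71, 6.00 and 6.09 in libraries 3 to 5, 2.82 to 3.93 in WT) and Usp18 (1.33 and 1.55, then 3.84, 4.29 and 4.30, against 0.64 to 1.63 in WT) were at WT level in libraries 1 and 2. In the mean over the list, libraries 3 to 5 stood 1.67 to 1.84 log2 units above WT, within the PiZ range of 1.63 to 1.98. Libraries 1 and 2 stood 0.26 and 0.50 above WT, with single WT libraries at up to 0.22. After the shift to the same median, libraries 3 to 5 all lay above the PiZ range of 1.12 to 1.46, at up to 1.63. Their place relative to PiZ thus depends on scaling. Against PiZ, 2 of the 26 were lower and 0 higher over all 5 libraries, where 15.0% of all genes were lower and 1.92% higher. Limma called 0 of them against PiZ in libraries 3 to 5, in either direction.

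Some of their promoters hold the letters of the interferon-stimulated response element, searched on either strand in the same windows as GAAA, any 2 bases and GAAA. It was present in 272 of 9018 genes (3.02%) and in 9 of the 18 interferon-stimulated genes with a window. Stat2, which rose over all 5 libraries, is shown beside Ifit1 and Isg15, which did not pass over all 5 libraries. Isg15 was at 1.11, 1.71, 3.18, 3.87 and 3.53 log2 CPM in PiZ p50-KO and 0.69 to 1.63 in WT (1.36, adjusted p = 0.127, and 2.20 in libraries 3 to 5). Ifit1 was at 0.81, 1.45, 3.13, 3.29 and 3.20, against 0.24 to 1.49 (1.65, adjusted p = 0.0868, and 2.48 in libraries 3 to 5). Capitals mark the fixed letters of the matches, which overlap in Isg15.
Stat2 (chr10:128270248-128270325, plus strand): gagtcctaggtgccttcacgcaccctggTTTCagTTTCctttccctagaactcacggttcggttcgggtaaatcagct
Ifit1 (chr19:34640745-34640853, plus strand): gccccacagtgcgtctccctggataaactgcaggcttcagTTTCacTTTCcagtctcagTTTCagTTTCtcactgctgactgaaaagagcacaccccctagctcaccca
Isg15 (chr4:156200835-156200936, minus strand): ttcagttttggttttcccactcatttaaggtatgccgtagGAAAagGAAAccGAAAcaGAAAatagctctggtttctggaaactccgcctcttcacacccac
The 3 promoters hold 1, 2 and 3 matches in the order shown, and all 3 genes were in the same list.

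Guanylate-binding proteins and immunity-related GTPases, which attack intracellular pathogens and answer to interferon gamma, gave 4 higher of 12 measured over all 5 libraries (Gbp10, Ifi47, Irgm1 and Irgm2; median 0.99) and 8 higher and 1 lower (Gbp8) in libraries 3 to 5. Shifted to the same median, 1 of the 12 passed over all 5, and 8 higher and 1 lower in libraries 3 to 5. Irgm2 was at 4.98, 5.33, 5.35, 5.74 and 5.65 log2 CPM in PiZ p50-KO, at 5.16 to 5.95 in PiZ and at 3.76 to 4.71 in WT (1.26, adjusted p = 0.0253, and 1.43 in libraries 3 to 5), with no overlap with WT. Class I antigen presentation gave 2 of 16 (Tap1 and Nlrc5; median 0.19, and after the shift to the same median -0.03 with 0 calls by limma). The calls in libraries 3 to 5 were Tap1 and Tapbp. Nlrc5, the transactivator of class I genes, was highest in library 2 at 3.01, followed by library 1 at 2.49, with 1.65 to 2.03 in libraries 3 to 5, 0.99 to 1.84 in PiZ and 0.38 to 1.46 in WT (1.28, adjusted p = 0.0488, and 0.90, adjusted p = 0.0528, in libraries 3 to 5). Class II gave 1 of 6, Cd74, the invariant chain (1.05, adjusted p = 0.0352, and 1.20 in libraries 3 to 5), and 4 in libraries 3 to 5. Cd74 differed from PiZ by -1.29 (adjusted p = 0.00263) and by -1.14 in libraries 3 to 5.

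NF-kB target genes gave 3 higher of 22 measured over all 5 libraries and 0 lower, with a median of 0.92 (0.70 after the shift to the same median). Among 21 tested in libraries 3 to 5, 10 were higher, with a median of 1.20. Birc3 (cIAP2, an inhibitor of cell death) was at 3.30, 3.44, 3.19, 3.81 and 3.32 log2 CPM in PiZ p50-KO, at 3.55 to 5.34 in PiZ and at 2.52 to 2.76 in WT (0.73, adjusted p = 0.0378, and 0.76 in libraries 3 to 5). Nfkbiz (an atypical IkB that works with p50 in the nucleus) was at 2.62, 2.45, 4.15, 4.07 and 3.59, against 2.37 to 4.46 in PiZ and 1.25 to 2.07 in WT (1.64, adjusted p = 0.0382, and 2.20 in libraries 3 to 5). Tnip1, a partner of the feedback inhibitor A20, was at 3.24, 3.51, 4.01, 4.77 and 4.02, against 4.93 to 5.75 in PiZ and 2.35 to 3.35 in WT. Its rise was 1.20 (adjusted p = 0.0499) and 1.56 in libraries 3 to 5. Against PiZ it was at -1.49 (adjusted p = 0.00433) and at -1.14 in libraries 3 to 5. After the shift to the same median 0 of the 22 passed limma over all 5 and 10 in libraries 3 to 5. The promoter letters GGGA, any base and TTTCC, an NF-kB site, were found in 3 of 18 targets with a window (16.7%: Csf1, Cxcl1 and Nfkbia). None of these passed over all 5 libraries. The letters were found in 0 of 21 acute-phase genes and in 29 of 9018 genes (0.322%). The chemokine Cxcl1 shows the split between libraries: 2.42 and 1.85 in libraries 1 and 2, 6.97, 7.03 and 6.33 in libraries 3 to 5, 4.04 to 7.12 in PiZ and 2.47 to 5.46 in WT (0.93, adjusted p = 0.639, and 2.79 in libraries 3 to 5).

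Acute-phase proteins, secreted by hepatocytes under IL-6 and IL-1, gave 5 higher of 25 measured (Saa1, Saa2, Lcn2, Lbp and Orm2), 0 lower, and a median of 0.49. The count was 9 in libraries 3 to 5, with a median of 0.29. Shifted to the same median, 2 passed over all 5 and 7 in libraries 3 to 5. Library 1 held the highest mean over the list, 1.30 above WT, against 0.46 to 0.99 in the other PiZ p50-KO libraries and 0.85 to 1.23 in PiZ. Orm2 (orosomucoid 2) was at 6.65, 4.53, 5.95, 5.57 and 5.81 log2 CPM in PiZ p50-KO, at 5.14 to 6.03 in PiZ and at 4.22 to 4.58 in WT, where library 2 overlapped WT (1.33, adjusted p = 0.0478, and 1.41 in libraries 3 to 5). Saa3, the form made by macrophages and other cells outside the hepatocyte, was at 2.13 and 2.07 in libraries 1 and 2 and at 4.87, 5.75 and 5.76 in libraries 3 to 5, above the 2.99 to 4.35 of PiZ and the 0.95 to 1.87 of WT. Its log2 fold change over all 5 was 2.75 (adjusted p = 0.0677), and 4.09 in libraries 3 to 5. Of 29 coagulation and complement proteins measured in their list, 0 passed limma's threshold, 0 had an unadjusted p under 0.05, voom called 0, and the median was -0.02. In libraries 3 to 5, 0 passed limma and 4 had an unadjusted p under 0.05. The list does not hold 2 complement genes that rose over all 5: Hc (2.26, adjusted p = 0.0378) and C1qb (0.71, adjusted p = 0.0382).

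Matrix genes of stellate cells and fibroblasts, the collagen-producing cells of fibrosis, gave 6 higher of 28 measured over all 5 libraries (Col3a1, Col4a1, Col4a2, Col5a2, Dcn and Fbn1), 0 lower, and a median of 0.87. In libraries 3 to 5 it gave 18, with a median of 1.15, and 17 after the shift to the same median, under which 0 of the 28 passed limma over all 5 (median 0.65). Col3a1 (type III collagen) was at 4.82, 5.02, 4.96, 5.90 and 5.81 log2 CPM in PiZ p50-KO, at 7.16 to 8.12 in PiZ and at 4.13 to 4.41 in WT. Without overlap between any of the 3 groups, Col3a1 differed from WT by 1.03 (adjusted p = 0.0396, and 1.28 in libraries 3 to 5) and from PiZ by -2.41 (adjusted p = 0.000191, and -2.16 in libraries 3 to 5). Col1a1 (type I collagen) was at 3.14, 3.47, 4.03, 5.40 and 5.34, against 6.35 to 7.61 in PiZ and 2.51 to 3.39 in WT, short of the threshold (1.38, adjusted p = 0.0964), and 2.03 in libraries 3 to 5 (adjusted p = 0.00593). Against PiZ, 24 of the 28 were lower and 0 higher over all 5, where 15.0% of all genes were lower, and 18 were lower in libraries 3 to 5, where 7.53% were. The summed level of 5 stellate cell markers was 137 to 278 CPM in PiZ p50-KO, 423 to 542 CPM in PiZ and 93.4 to 107 CPM in WT. In whole liver, more cells of a type and more RNA per cell cannot be told apart.

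Macrophage genes were read as 2 lists, of recruited and of resident cells. Recruited and lipid-associated macrophage markers gave 2 higher of 14 measured over all 5 (Cx3cr1 and Lyz2; median 1.24) and 10 of 13 in libraries 3 to 5 (median 1.95). The shift to the same median left 0 by limma over all 5 and 10 in libraries 3 to 5. Cx3cr1 was at 0.09 to 2.89 log2 CPM in PiZ p50-KO and at -1.74 to -0.72 in WT. It met the filter of 1 CPM in 5 libraries only through PiZ p50-KO, which fixed its lack of overlap in advance. In libraries 3 to 5 it was not tested. Gpnmb, a marker of lipid-laden macrophages, was at 1.34, 2.27, 4.71, 5.93 and 5.59 log2 CPM in PiZ p50-KO, at 6.46 or more in PiZ and at -1.70 to 2.25 in WT (3.18, adjusted p = 0.089, and 4.62 in libraries 3 to 5). Of 14 resident Kupffer cell markers, 2 rose over all 5 (Marco and C1qb) and 0 fell, with a median of 0.41. In libraries 3 to 5 the same pair was higher and Timd4 and Cd163 were lower, with a median of 0.23. After the shift to the same median limma called 0 over all 5, and 1 higher and 3 lower in libraries 3 to 5. Cd163 (the haemoglobin scavenger receptor) was at 3.48 and 3.49 in libraries 1 and 2 and at -0.36, -0.82 and -0.35 in libraries 3 to 5, against 0.22 to 1.35 in PiZ and 2.59 to 3.05 in WT (-1.70, adjusted p = 0.232, and -3.30 in libraries 3 to 5). Timd4 (an apoptotic cell receptor of long-lived Kupffer cells) was at 2.53 and 2.65, then at 0.31, 0.64 and -0.92, against 2.50 to 3.59 in PiZ and 2.15 to 3.02 in WT (-1.45, adjusted p = 0.166, and -2.49 in libraries 3 to 5). Clec4f, a Kupffer cell lectin receptor, was at 5.15 to 5.91 in PiZ p50-KO, 6.01 to 6.70 in PiZ and 5.04 to 5.45 in WT (0.42, adjusted p = 0.159, and 0.24 in libraries 3 to 5). The summed level of 6 resident macrophage markers, without Cd163, was 159, 148, 113, 140 and 179 CPM in PiZ p50-KO, 207 to 327 CPM in PiZ and 101 to 114 CPM in WT, so this sum was not lower than WT. The mean over the 14 markers was 0.56, 0.47, -0.37, -0.06 and 0.09 relative to WT, with single WT libraries at -0.06 to 0.14. After the shift to the same median, libraries 3 to 5 were at -0.40, -0.40 and -0.21, below the -0.07 to 0.09 of WT. The direction in libraries 3 to 5 thus depends on the measure. The summed level of 5 recruited macrophage markers was 50.6 to 299 CPM in PiZ p50-KO, 415 to 504 CPM in PiZ and 28.8 to 40.1 CPM in WT. Of 6 neutrophil markers Lcn2 was the one that passed. T and NK cell markers summed to 0.48 to 1.68 CPM in PiZ p50-KO, 1.6 to 2.8 CPM in PiZ and 0.264 to 0.982 CPM in WT.

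**Figure D4:**
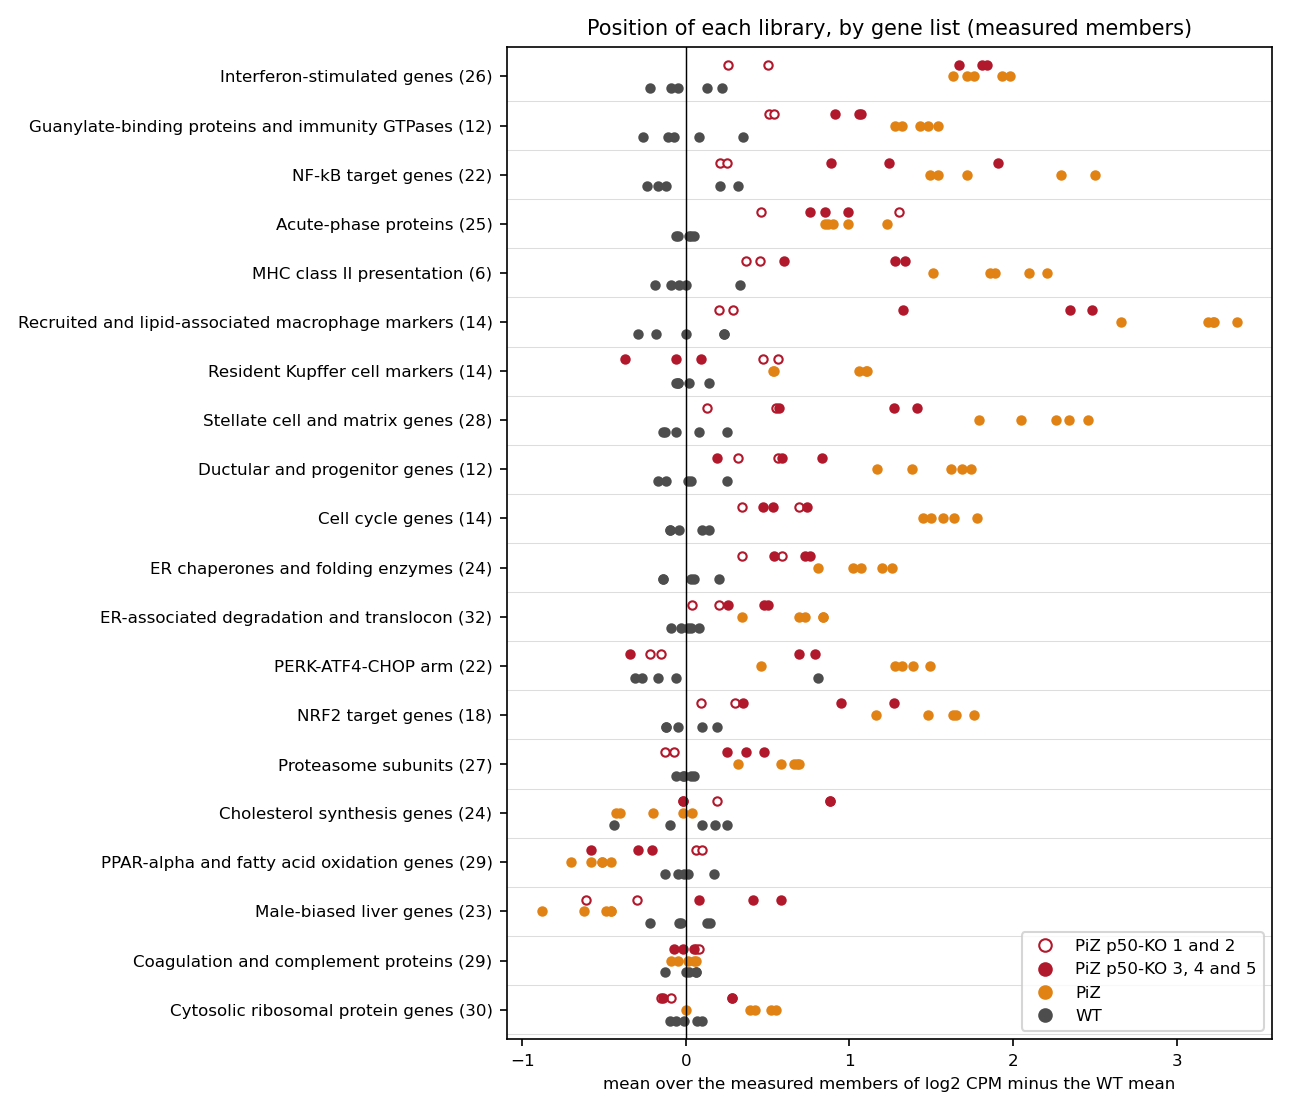
Mean over the measured members of each of 20 gene lists of the log2 CPM minus the WT mean, for every library (points; open points are PiZ p50-KO libraries 1 and 2; number of members in brackets). Interferon-stimulated genes place libraries 3 to 5 (1.67 to 1.84) within PiZ (1.63 to 1.98), whereas matrix genes (0.13 to 1.41) and cell cycle genes (0.34 to 0.74) place all 5 below PiZ. Values are without the shift to the same median, after which libraries 3 to 5 lie above PiZ for interferon-stimulated genes.

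Growth and stress genes outside the ER had few calls over all 5 libraries, as had all genes (1.76% higher and 0.0906% lower). Some of their lists had more in libraries 3 to 5, where 9.07% of all genes were higher and 2.25% lower. Cell cycle genes gave 1 of 14 over all 5 libraries, Top2a (1.96, adjusted p = 0.0465). Top2a was at 0.00 to 1.86 log2 CPM in PiZ p50-KO and at -1.86 to -0.38 in WT. It met the filter of 1 CPM in 5 libraries only through PiZ p50-KO, which fixed its lack of overlap in advance. Top2a was not tested in libraries 3 to 5, where 1 of 13 was higher, Ccnd1. The list mean was 0.34 to 0.74 above WT in PiZ p50-KO, against 1.45 to 1.78 in PiZ. Against PiZ, 11 of the 14 were lower over all 5, where 15.0% of all genes were lower, and 9 in libraries 3 to 5, where 7.53% were. After the shift to the same median 0 of the 14 passed limma against WT over all 5. Of 14 p53 targets, Aen (1.14, adjusted p = 0.0396, and 1.53 in libraries 3 to 5) and Mdm2, which degrades p53 (0.57, adjusted p = 0.0421, and 0.54 in libraries 3 to 5), rose. The shift to the same median left 0 of these over all 5 by limma and 2 of 3 in libraries 3 to 5. Cdkn1a (p21, a cell cycle inhibitor) was at 1.92 and 1.98 log2 CPM in libraries 1 and 2, below every WT library (2.32 to 3.50), and at 6.14, 5.05 and 5.66 in libraries 3 to 5, against 5.39 to 7.11 in PiZ (1.22, adjusted p = 0.372, and 2.69 in libraries 3 to 5). Ductular and progenitor genes had 0 of 12 past limma's threshold over all 5 (6 at an unadjusted p under 0.05, voom 0) and 6 higher and 1 lower in libraries 3 to 5, or 4 and 1 after the shift to the same median. NRF2 targets had 0 of 18 (7 at an unadjusted p under 0.05, voom 0) and 8 higher in libraries 3 to 5. Among those, Gstm3, a glutathione transferase, was at 6.46 and 5.49 in libraries 1 and 2 and at 7.90, 9.91 and 9.45 in libraries 3 to 5, against 10.50 to 11.13 in PiZ and 5.60 to 6.61 in WT (1.85, adjusted p = 0.152, and 3.09 in libraries 3 to 5). Proteasome subunits had 0 of 27 (6 at an unadjusted p under 0.05, voom 0) and 7 in libraries 3 to 5, with 0 left after the shift to the same median, and the median of 0.18 over all 5 became -0.03, so its direction depends on scaling. Myc, an immediate early gene and growth regulator, rose by 1.33 (adjusted p = 0.0488) and by 1.24 in libraries 3 to 5. It was the 1 of 14 measured immediate early genes that passed, and the list median was -0.19 (0.37 in libraries 3 to 5). After the shift to the same median Myc did not pass by limma (adjusted p = 0.0929, and 0.0729 in libraries 3 to 5).

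Few metabolic genes passed over all 5 libraries, where 1.76% of all genes were higher and 0.0906% lower. Pparg, the adipogenic receptor that drives lipid storage, was the member that rose among 13 measured genes of lipid droplets and uptake: 4.04, 3.49, 3.90, 4.37 and 4.13 log2 CPM in PiZ p50-KO, 3.45 to 4.25 in PiZ and 2.77 to 3.19 in WT (0.98, adjusted p = 0.0272, and 1.13 in libraries 3 to 5). Lpl (lipoprotein lipase) was at 2.87, 3.29, 4.36, 4.51 and 4.38, against 6.26 to 6.79 in PiZ and 2.46 to 2.84 in WT (1.22, adjusted p = 0.0577), and it passed in libraries 3 to 5 (1.75, adjusted p = 9.2e-05). Cholesterol synthesis, driven by SREBP2, had 0 of 24 past limma's threshold (7 at an unadjusted p under 0.05, voom 0), and Hmgcs1, Sqle, Cyp51, Idi1 and Msmo1 were higher in libraries 3 to 5, of which 3 were left after the shift to the same median. Hmgcs1 (HMG-CoA synthase) was at 8.24, 7.58, 8.74, 9.56 and 9.42 in PiZ p50-KO, at 7.84 to 8.35 in PiZ and at 6.57 to 8.09 in WT (1.15, adjusted p = 0.112, and 1.68 in libraries 3 to 5). The mean over the list was 0.19, -0.02 and -0.02 relative to WT in libraries 1 to 3 and 0.88 in both libraries 4 and 5, the first of which also held the pancreatic markers, whose part was not tested. Against PiZ, 7 of the 24 were higher and 0 lower over all 5, where 1.92% of all genes were higher, and 9 were higher in libraries 3 to 5, where 1.23% were.

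Fatty acid oxidation under PPAR-alpha had 0 of 29 past limma's threshold (5 at an unadjusted p under 0.05, voom 0), and 4 were lower in libraries 3 to 5. The shift to the same median made this 10, so that this count depends on scaling. Vnn1 (pantetheinase), a PPAR-alpha target, was at 5.80, 5.07, 4.16, 4.21 and 3.71 log2 CPM in PiZ p50-KO, at 0.81 to 1.52 in PiZ and at 4.66 to 5.67 in WT, with libraries 3 to 5 below every WT library and all 5 above every PiZ library. It differed from WT by -0.49 (adjusted p = 0.43) and by -1.06 in libraries 3 to 5. It was 3.42 above PiZ (adjusted p = 0.000173) and 2.85 above it in libraries 3 to 5. Fatty acid synthesis had 0 of 20 (6 at an unadjusted p under 0.05, voom 0), with Scd1, Fads1, Fads2 and Elovl2 lower in libraries 3 to 5. Among 30 conjugating enzymes and carboxylesterases 0 passed (9 at an unadjusted p under 0.05, voom 0), while libraries 3 to 5 had 1 higher and 7 lower, or 1 and 10 after the shift to the same median. Cyp7a1, the rate-limiting enzyme of bile acid synthesis, was at 5.33, 5.93, 6.91, 7.78 and 7.87 in PiZ p50-KO, at 3.91 to 5.81 in PiZ and at 3.12 to 8.08 in WT. The wide WT range enclosed all 5 values (0.96, adjusted p = 0.5, and 1.71, adjusted p = 0.252, in libraries 3 to 5). It was 1.95 above PiZ (adjusted p = 0.0239) and 2.70 above it in libraries 3 to 5. Of 23 male-biased genes, Ugt2b38 and Mup3 fell and 0 rose over all 5, whereas in libraries 3 to 5 Gstp1, Selenbp2, Serpina1e and Slco1a1 were higher and 4 were lower, Ugt2b38 and Mup3 among them. Hepatocyte transcription factors and ribosomal protein genes had 0 of 16 and 0 of 30 past limma's threshold, with 0 in each at an unadjusted p under 0.05 and 0 by voom.

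The mouse Serpina1 genes, the host's own alpha-1 antitrypsin genes, were higher than in PiZ, 4 of 5 past the threshold over all 5 libraries and in libraries 3 to 5. Of all genes, 1.92% and 1.23% were higher than in PiZ in these 2 fits. Serpina1e divided the libraries, and Serpina1a and Serpina1b did not. The Serpina1 genes are close copies, so the division of reads among them is uncertain. Serpina1a was at 11.68, 11.76, 11.56, 11.62 and 11.76 log2 CPM in PiZ p50-KO, at 10.72 to 11.11 in PiZ and at 11.65 to 12.06 in WT: -0.15 from WT (adjusted p = 0.492, and -0.18 in libraries 3 to 5) and 0.76 above PiZ (adjusted p = 0.00293, and 0.73 in libraries 3 to 5). Serpina1b differed from WT by -0.11 (adjusted p = 0.626, and -0.08 in libraries 3 to 5) and was 0.55 above PiZ (adjusted p = 0.0106, and 0.59 in libraries 3 to 5). Serpina1e was at 7.67 and 7.46 in libraries 1 and 2 and at 13.14, 13.30 and 9.56 in libraries 3 to 5, against 5.58 to 7.50 in PiZ and 6.09 to 7.77 in WT. Its average difference from WT was 3.20 (adjusted p = 0.114), and 4.98 in libraries 3 to 5. Serpina1d was at 10.34, 10.21, 11.53, 11.67 and 10.43 in PiZ p50-KO, against 9.35 to 9.81 in PiZ and 9.95 to 10.42 in WT. It differed from WT by 0.68 (adjusted p = 0.18) and by 1.06 in libraries 3 to 5 (adjusted p = 0.0344). After the shift to the same median the latter did not pass (0.85, adjusted p = 0.104). Serpina1c differed from WT by -0.42 (adjusted p = 0.215, and -0.53 in libraries 3 to 5).

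A few genes set libraries 3 to 5 apart from every other library, PiZ included, and these were chosen after their values were seen. At 6 of the 12146 genes, libraries 3 to 5 lay at least 3 log2 units outside the range of the other 12, at 1 above and at 5 below. Gstp3 (a pi-class glutathione transferase, chr19:4057477-4059569) was at 3.41, 3.64 and 3.45 log2 CPM in libraries 3 to 5, against 10.18 and 9.99 in libraries 1 and 2, 9.17 to 9.41 in PiZ and 9.84 to 10.37 in WT. WT PBS 2, which was set aside for its different make-up, stood at 3.59. Gbp11 (chr5:105323042-105346472) was at 0.37, 0.16 and -0.03, against 6.16 and 5.54 in libraries 1 and 2, 5.39 to 6.51 in PiZ and 5.39 to 6.08 in WT. Hist1h2al, a histone H2A gene (chr13:51202727-51203065), was at -3.14, -6.52 (no read) and -4.21, against 3.54 and 3.87, 2.48 to 3.66 in PiZ and 3.40 to 4.01 in WT; WT PBS 2 had no read. Selenbp2 (a selenium-binding protein, chr3:94693556-94704413) was at 9.49, 10.03 and 10.07, against 4.47 and 4.32, 4.75 to 6.38 in PiZ and 3.91 to 5.15 in WT. WT PBS 2 was at 3.90 for Gbp11 and at 3.64 for Selenbp2, away from libraries 3 to 5 at both. Its Alb stood at 12.22 log2 CPM, far below the other libraries. The other 2 of the 6 genes carry predicted names. Gstp3, Gbp11 and Selenbp2 have close copies in the genome.

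Other genes placed libraries 3 to 5 with PiZ and libraries 1 and 2 with WT. Serpina3f, a mouse antichymotrypsin-like serpin, was at 3.61, 3.52, 9.44, 9.13 and 9.05 log2 CPM in PiZ p50-KO, at 10.07 to 10.76 in PiZ and at 2.40 to 3.62 in WT. Gdpd3, a lysophospholipase D, was at 3.55 and 3.11 in libraries 1 and 2, had no read in libraries 3 and 5 and was at -3.23 in library 4, with -4.26 to -2.47 in PiZ and 3.33 to 4.14 in WT. Sbk2, a kinase gene, was at 2.99 and 3.39, then at -6.52, -3.52 and -2.83, against -3.01 to -1.79 in PiZ and 3.27 to 3.89 in WT. The labels call all 5 libraries PiZ p50-KO, and what divides them cannot be told from the labels.

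**Figure D5:**
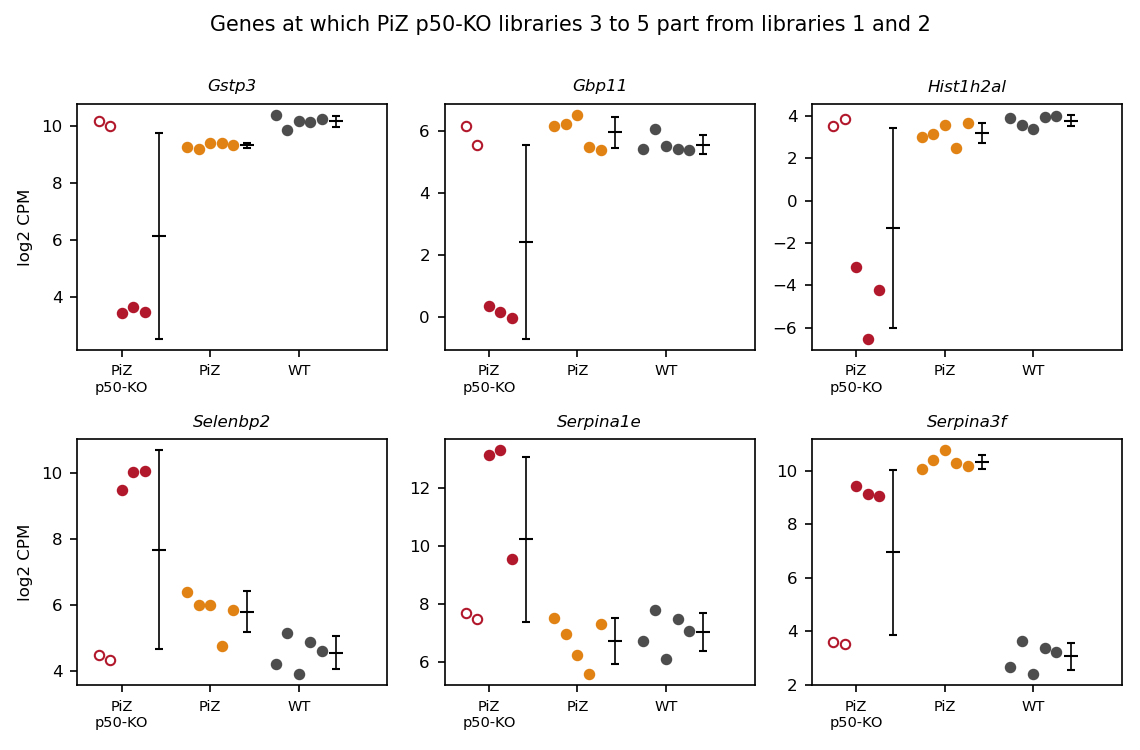
Level in log2 CPM by library (points; open points are PiZ p50-KO libraries 1 and 2), with mean and SD (bars), of 6 genes chosen after their values were seen. Libraries 1 and 2 lie near WT in all 6 panels; libraries 3 to 5 lie near PiZ for Serpina3f and outside both PiZ and WT for the other 5.

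Set against PiZ with p50 intact, the 5 libraries had 248 genes higher (1.92% of 12896) and 1932 lower (15.0%), with a median of -0.22. On their own, libraries 3 to 5 had 156 higher (1.23%) and 957 lower (7.53%). With libraries shifted to the same median, which moved the median gene to 0.03, the counts were 740 higher and 950 lower over all 5, a share of higher calls of 43.8% in place of 11.4%. Without PiZ p50-KO library 1 there were 151 higher and 1135 lower, and without library 3 there were 408 and 1977. Without PiZ library 1 there were 155 and 1115, without PiZ library 2 there were 131 and 842, without PiZ library 3 there were 135 and 807, and without PiZ library 5 there were 198 and 1191. At 12 of the 225 genes called against WT, all 5 PiZ p50-KO libraries lay within the PiZ range. Of these, Nfkbiz, Hunk (a kinase, 1.25, adjusted p = 0.0281, and 1.21 in libraries 3 to 5), Srgap2 (a regulator of cell shape, 0.83, adjusted p = 0.0258, and 0.82 in libraries 3 to 5), Slc11a2 (the iron transporter DMT1, 0.70, adjusted p = 0.0488, and 0.77 in libraries 3 to 5) and Asap1 (a regulator of ARF GTPases, 0.64, adjusted p = 0.0454, and 0.59 in libraries 3 to 5) had the greatest rises, and Arrdc3 fell, whose place within that range rests on PiZ library 1. Slc11a2 was at 5.38, 5.67, 5.27, 5.92 and 5.96 log2 CPM in PiZ p50-KO, at 5.16 to 6.30 in PiZ and at 4.64 to 5.09 in WT. All 5 libraries lay beyond both PiZ and WT at 11 genes, 5 above and 6 below, and limma called 0 of these in both comparisons.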

How the data were processed

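The authors deposited log2 CPM values (reads scaled to library size, with a small prior count) for 22 libraries of this table. Per the submitters' processing notes, bcl2fastq, DRAGEN, STAR, Subread featureCounts and edgeR were used with the build GRCm38; strand use is not given in the sources used here. Of 55774 rows, 287 repeated a gene ID with equal values and were dropped. Reads were recovered from the values: with a tolerance of 0.1 read, 100% of values up to 20 reads were whole. Genes above 0 log2 CPM (1 CPM) in at least 5 of the libraries compared were tested with limma 3.58.1 (R 4.3.3; lmFit, eBayes with trend, two-sided, Benjamini-Hochberg over all genes tested, threshold 0.05), with only the groups compared in a fit. The procedure was tested on simulated data. Positions are from GENCODE vM21 (99.9% of tested IDs) and promoters from RefSeq.

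Groups came from the sample titles. The members, the 49 gene lists and the tests were chosen with earlier results of these data known. Named genes are the 8 greatest rises and falls whose groups do not overlap (the higher mean at or over 2 log2 CPM, predicted names left out), up to 3 called members per list or else the greatest change, NF-kB subunits, mouse Serpina1 genes, Alb, and called genes within the PiZ range. A withheld item is not reported here. Other named list members and the genes that split the libraries were chosen after their values were seen. Alternatives were other scaling, filters, pseudocount (1 CPM), weights and moderation, a shared spread, the replicate block, leaving libraries out and keeping WT PBS 2.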

Additional observations from a re-analysis of the deposited data

Results flagged for a closer look

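A gap test within groups of 5 libraries (gap to the nearest value over the range, above 0.71) was run on the genes with the greatest changes, the NF-kB subunits, the mouse Serpina1 genes and Alb, 81 groups in all. It marked 6, and chance alone marks about 1 in 20 groups. Within PiZ p50-KO, Rel was at 3.40 log2 CPM in library 3, against 2.34 to 2.58 in the other 4, and Serpina1c was at 10.15 in library 4, against 10.87 to 10.97. Library 3 had the high mitochondrial share and library 4 the high pancreatic markers; the part of either in these values was not tested.

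Within PiZ, Saa2 was at 6.95 in library 1, against 5.89 to 6.13 in the others, and Arrdc3 was at 3.10 in library 1, against 6.07 to 6.29. Derl3 was at 3.67 in PiZ library 4, against 5.25 to 5.77, and Ugt2b38 at 4.13 in PiZ library 4, against 4.65 to 4.80.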

How the results depend on the processing

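The 214 higher and 11 lower genes against WT depend on the libraries and the scaling. Libraries 3 to 5 alone gave 1074 higher and 266 lower, and 600 and 532 when also shifted to the same median, an alternative added after seeing the data. Keeping WT PBS 2 gave 0 and 0. Leaving out 1 library gave 0 to 517 higher and 0 to 79 lower. A spread shared with all libraries gave 1107 and 142, a filter at 4 CPM 94 and 7, the median shift 17 and 10, quantile normalization 8 and 3, and voom 128 and 7. No filter, the pseudocount of 1 CPM and robust moderation kept both counts within 1.5 times. Of the 225 genes, 206 were also called in libraries 3 to 5 alone.

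Against PiZ (248 higher, 1932 lower), libraries 3 to 5 alone gave 156 and 957, and 406 and 611 when shifted. Leaving out 1 library gave 131 to 408 and 807 to 2455. The shared spread gave 417 higher, the median shift 740 and 950, and quantile normalization 645 and 923.

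Libraries of equal number did not deviate together, so numbers pair nothing. With the replicate block, over the 4 numbers both groups share, limma called 0 higher and 0 lower against WT (1197 and 250 at an unadjusted p under 0.05). Without the block the same libraries, added after seeing the data, gave 1 and 0. Against PiZ the replicate block gave 135 and 850.

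The Nfkb1 difference from WT, -0.22, was -0.70 and past the threshold in libraries 3 to 5, a set chosen with these data known. With WT PBS 2 kept it was -0.63 (exact permutation test, p = 0.294). Of 46 named genes called against WT, 0 to 42 kept the call when 1 library was left out, 9 under the median shift and 25 under voom, and 0 reversed. Most T, B and NK cell markers lie under 1 CPM, so the filter left most of them untested.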
